A study of Mus musculus with 12 samples.

Results

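The genes described here are 10 immediate early and growth-arrest response genes, namely Egr1, Egr2, Klf6, Myc, Ier2, Ier3, Ier5, Btg2, Gadd45a and Gadd45b, out of 19057 genes on the arrays. Each was read from the probes annotated to its symbol alone, and where a gene had several such probes the one with the highest mean signal was used. All 10 had a probe. Egr1, Egr2, Klf6, Ier3, Gadd45a and Gadd45b, 6 genes in all, passed detection in each of the 12 arrays, at a detection p-value under 0.01 against negative control beads. Myc was detected in 3 of the 12 arrays, and Ier2, Ier5 and Btg2 in 0. RNA came from bone marrow-derived macrophages (BMDM) of Balb/c mice, grown from femur marrow with 20 ng/ml M-CSF, a growth factor for macrophages. The cells were then kept without growth factor for a day before treatment. Cells were treated for 6 h with Kdo2-lipid A (KLA, the endotoxic part of lipopolysaccharide and a ligand of Toll-like receptor 4) at 50 ng/ml, with KLA plus the human peptide beta-defensin 3 (hBD3), an antimicrobial of epithelia, with hBD3, or were left untreated. Each group had 3 arrays, labelled as biological replicates. The label gives hBD3 at 5 mg/ml where the methods state micrograms per ml, and the KLA plus hBD3 group has no dose label. The study's methods describe replicates as separate preparations of primary cells from different mice. The peptide was human and the cells were mouse, and a single time after treatment was measured.

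Immediate early genes are switched on within minutes of a stimulus without new protein synthesis. MAP kinases, acting through serum response factor and its ETS partners, and NF-kB drive many of them. Most of their mRNAs are short-lived, so a level hours after treatment is what remains or has been renewed. In macrophages they include transcription factors that shape the later inflammatory response and proteins that limit growth, death or the signal itself.

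Between 12363 and 15629 of 45281 probes were detected per array, with 12363 to 13571 in KLA arrays, 12543 to 14644 with KLA plus hBD3, 14353 to 14980 with hBD3 and 14610 to 15629 in untreated arrays. All 10 measured macrophage markers were detected, and 0 of 8 T, NK and B cell markers. Of 12 neutrophil markers 3 were detected, and 1 of 9 dendritic cell markers. With KLA 2 macrophage markers rose and 5 fell, the 3 detected neutrophil markers and the detected dendritic cell marker rose, 1 of 14 stromal cell markers rose, and of 8 housekeeping genes 0 rose and 3 fell. With KLA plus hBD3 against KLA 5 macrophage markers rose, such as the Fc receptor Fcgr1 (by 1.59 log2 units) and the complement gene C1qc (1.27), and 1 fell. The neutrophil markers Lcn2 (-3.44) and Camp (-0.84) and the dendritic cell marker Batf3 (-1.37) fell there, as did the stromal cell marker Pdgfrb, undetected with KLA plus hBD3 (at least 2.09-fold), and 2 housekeeping genes rose. Median centring gave 3 macrophage markers and 0 housekeeping genes higher and 0 of either lower. The part of these shifts in the results was not tested. The third hBD3 array stood apart by its stromal cell markers, which bears on Egr1 and is described with that gene. Although labelled as treated with KLA alone, KLA replicates 2 and 3 have HBD3 in their titles. In the deposited signal before normalization, the columns that matched the KLA arrays are headed lps, without hbd3. In a bulk RNA sample, fewer cells of a type and less RNA per cell cannot be told apart.

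With KLA, 4 of the 10 genes rose (Gadd45b, Ier3, Egr1 and Gadd45a) and Egr2 fell. Gadd45b rose 10.4-fold and Ier3 9.02-fold, Egr1 rose 3.38-fold and Gadd45a 1.54-fold, and Egr2 fell 1.36-fold against untreated cells. Among all probes, detected or not, limma called 6.84% higher and 8% lower with KLA. The 5 called genes were all among the 6 detected ones. In a fit of the 14495 probes detected in all 3 arrays of a group, limma called 6650 with KLA. The median log2 difference over the 10 genes, undetected ones included, was 0.42, against 0.0049 over all probes. With KLA plus hBD3, Gadd45b, Ier3 and Gadd45a rose against untreated cells and 0 of the 10 genes fell, where 1.96% of all probes were called higher and 2.42% lower. Of the 14495 detected probes 2265 were called there. Set directly against KLA alone, KLA plus hBD3 gave 0 genes higher and 2 lower, Ier3 and Gadd45b, with 3.5% of all probes called higher and 3.48% lower. Of the detected probes 3470 were called in that comparison. With hBD3 alone limma called 0 of the 10, 2 at an unadjusted p under 0.05, and 0.00221% of all probes higher and 0.00221% lower. The medians over the 10 genes in these comparisons were 0.070, -0.27 and 0.017, against 0.00069, -0.0031 and 0.00076 over all probes. Centring arrays on their medians, without quantile normalization, put the median over the 10 genes at 0.0998 with KLA, 0.062 with KLA plus hBD3 against untreated cells, -0.22 against KLA and -0.0998 with hBD3, so that the last changed sign. It called 3 of them higher and 1 lower with KLA, 2 higher and 1 lower with KLA plus hBD3 against untreated cells, and 0 higher and 2 lower against KLA.

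**Figure D1:**
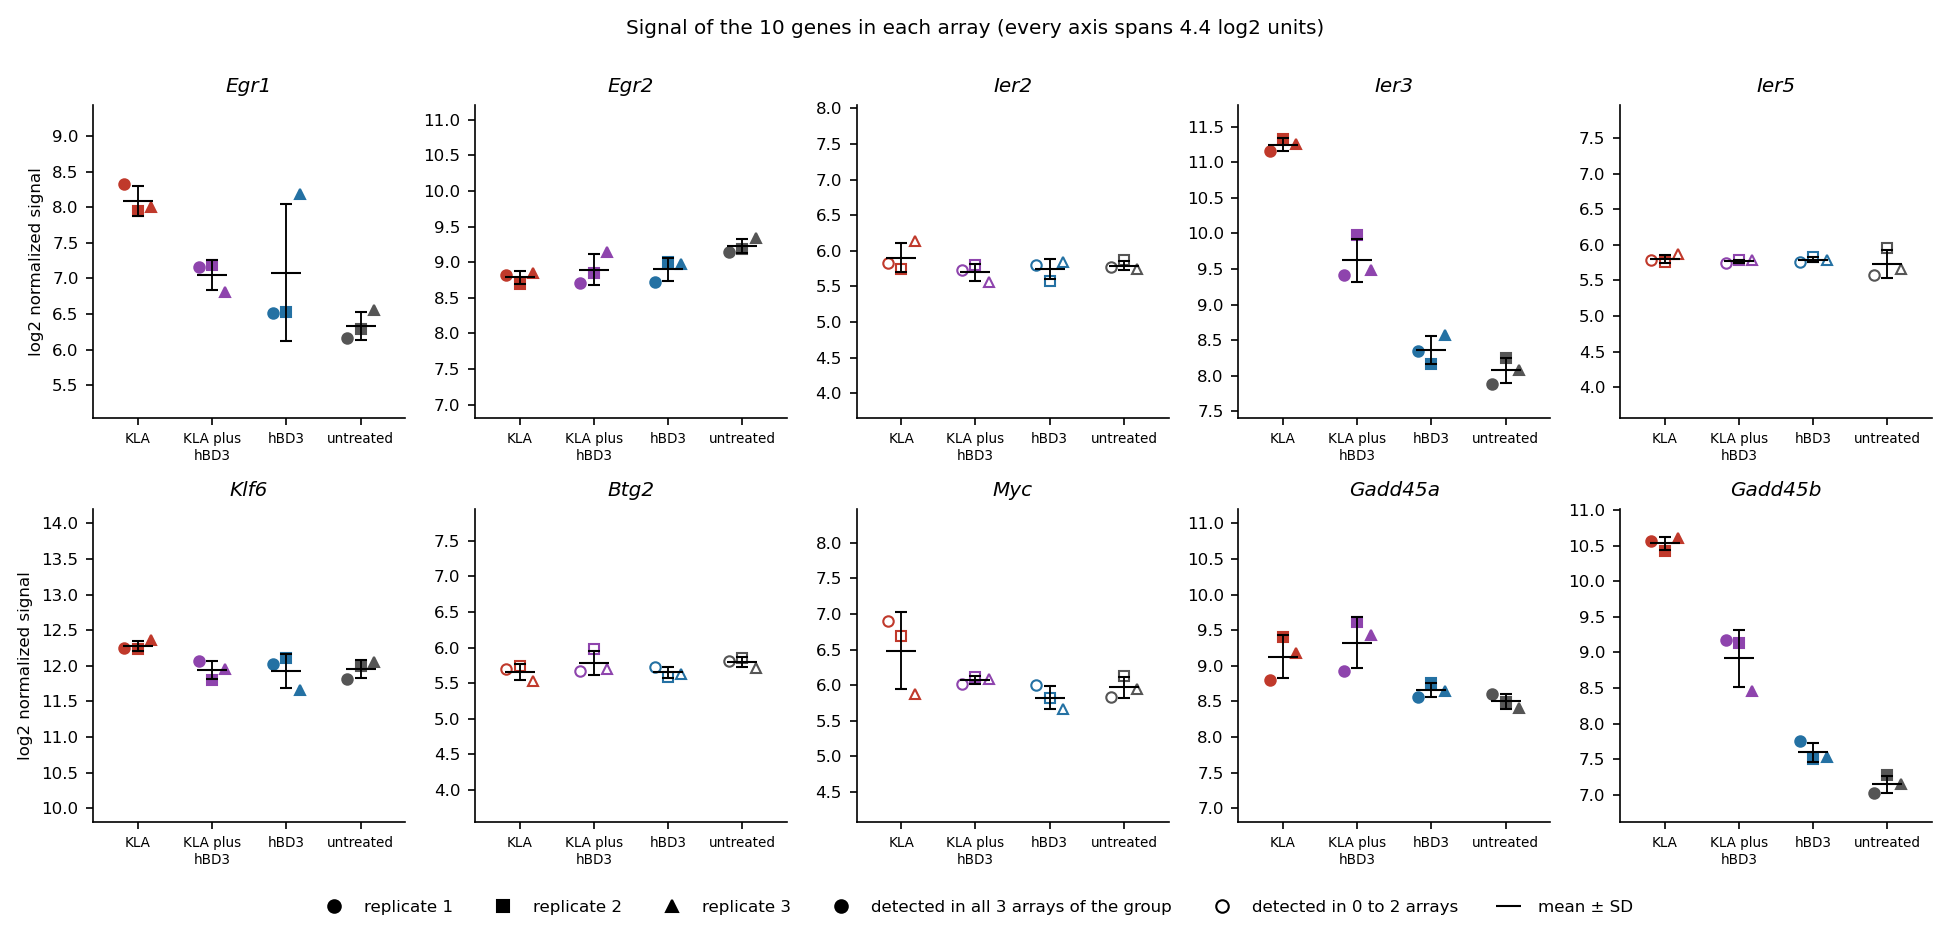
Log2 normalized signal of each of the 10 genes (vertical axis) in every array, by treatment group (horizontal axis). Symbols mark replicates 1 to 3, filled where all 3 arrays of the group detected the probe, and the black bar and whiskers are the group mean ± SD. Ier3 and Gadd45b are highest in the 3 KLA arrays and intermediate with KLA plus hBD3, and Ier2, Ier5 and Btg2 lie near 6 in all arrays.

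Gadd45b encodes a stress-response protein that binds the kinase MEKK4 and influences p38 and JNK signalling, and is known as an NF-kB target. Its log2 signal was 10.56, 10.43 and 10.61 with KLA, 9.17, 9.13 and 8.45 with KLA plus hBD3, 7.75, 7.51 and 7.54 with hBD3, and 7.03, 7.27 and 7.15 in untreated cells. No group overlapped another, and the levels stood in the order KLA, KLA plus hBD3, hBD3, untreated. Gadd45b rose with KLA by 3.38 ± 0.16 log2 units (SE, 3 arrays per group, limma adjusted p = 8.56e-08). It also rose with KLA plus hBD3, by 1.77 ± 0.16 against untreated cells (adjusted p = 0.000159), which is 3.40-fold. Against KLA alone it fell by 1.62 ± 0.16 (adjusted p = 7.38e-05), a 3.06-fold lower level with KLA plus hBD3. The hBD3 and untreated arrays, neighbours in the order, differed by 0.45 (95% confidence interval 0.094 to 0.80) with adjusted p = 0.56.

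The promoter window of Gadd45b, from 250 bases before the start to 50 after it, is shown because the gene had the largest rise of the 10 with KLA. It lies at chr10:80929841-80930140 on the + strand of GRCm38.p6, as given by RefSeq, and capitals mark matches to the searched motifs. These are an E-box (CACGTG, bases -185 to -180 from the start) and a TATA box (TATAAA, bases -46 to -41).
Gadd45b: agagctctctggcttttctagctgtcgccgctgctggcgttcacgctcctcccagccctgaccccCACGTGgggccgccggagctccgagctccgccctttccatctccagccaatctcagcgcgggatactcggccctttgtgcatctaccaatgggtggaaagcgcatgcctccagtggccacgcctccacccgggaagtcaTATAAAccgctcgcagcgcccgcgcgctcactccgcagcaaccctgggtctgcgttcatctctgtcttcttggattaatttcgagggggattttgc
An E-box was present in 7.15% of all 32851 promoter windows of this length and a TATA box in 13.6%, so neither is rare. No NF-kB match was found in this window, which says only that those letters are not there.

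Ier3 (also IEX-1) encodes a small membrane-associated protein of the immediate early response that affects cell survival and ERK signalling. Its log2 signal was 11.16, 11.33 and 11.26 with KLA, 9.41, 9.97 and 9.48 with KLA plus hBD3, 8.35, 8.17 and 8.57 with hBD3, and 7.89, 8.25 and 8.09 in untreated cells. KLA and KLA plus hBD3 arrays did not overlap each other or the other groups, whereas hBD3 and untreated arrays did. Ier3 rose with KLA by 3.17 ± 0.15 (SE, n = 3 per group, adjusted p = 8.29e-08). The rise with KLA plus hBD3 was 1.55 ± 0.15 against untreated cells (adjusted p = 0.000216), or 2.92-fold. It fell by 1.63 ± 0.15 against KLA alone (adjusted p = 4.18e-05), or 3.09-fold. With hBD3 alone the difference from untreated cells was 0.29 (95% confidence interval -0.041 to 0.62, adjusted p = 0.736).

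The Ier3 window, shown as that of the other gene that fell with KLA plus hBD3 against KLA, lies at chr17:35821463-35821762 on the + strand (GRCm38.p6, RefSeq). Capitals mark the single match, an NF-kB site read on the reverse strand at bases -92 to -83.
Ier3: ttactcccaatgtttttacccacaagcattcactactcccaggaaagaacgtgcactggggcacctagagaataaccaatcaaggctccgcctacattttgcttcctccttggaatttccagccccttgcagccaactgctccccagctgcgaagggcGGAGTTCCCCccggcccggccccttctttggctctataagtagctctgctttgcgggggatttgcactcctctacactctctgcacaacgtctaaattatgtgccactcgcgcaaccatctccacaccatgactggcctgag
An NF-kB site was present in 4.51% of all windows. Ier3 was the 1 gene with such a match among the 7 genes that had a window.

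Both genes were thus lower with hBD3 in the presence of KLA. In its absence the differences were 0.45 for Gadd45b and 0.29 for Ier3, neither called, and that of Ier3 was -0.016 with median centring. The difference of these effects, the interaction, was -2.06 ± 0.23 for Gadd45b (adjusted p = 0.000562) and -1.91 ± 0.21 for Ier3 (adjusted p = 0.000562). Of all probes 1.66% were called higher and 1.74% lower in this comparison, and of the 10 genes 0 were called higher and these 2 lower. In the fit of 14495 detected probes 1783 were called. All 12 fits that left out an array in turn kept the calls of both genes in the 4 comparisons where they had one.

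**Figure D2:**
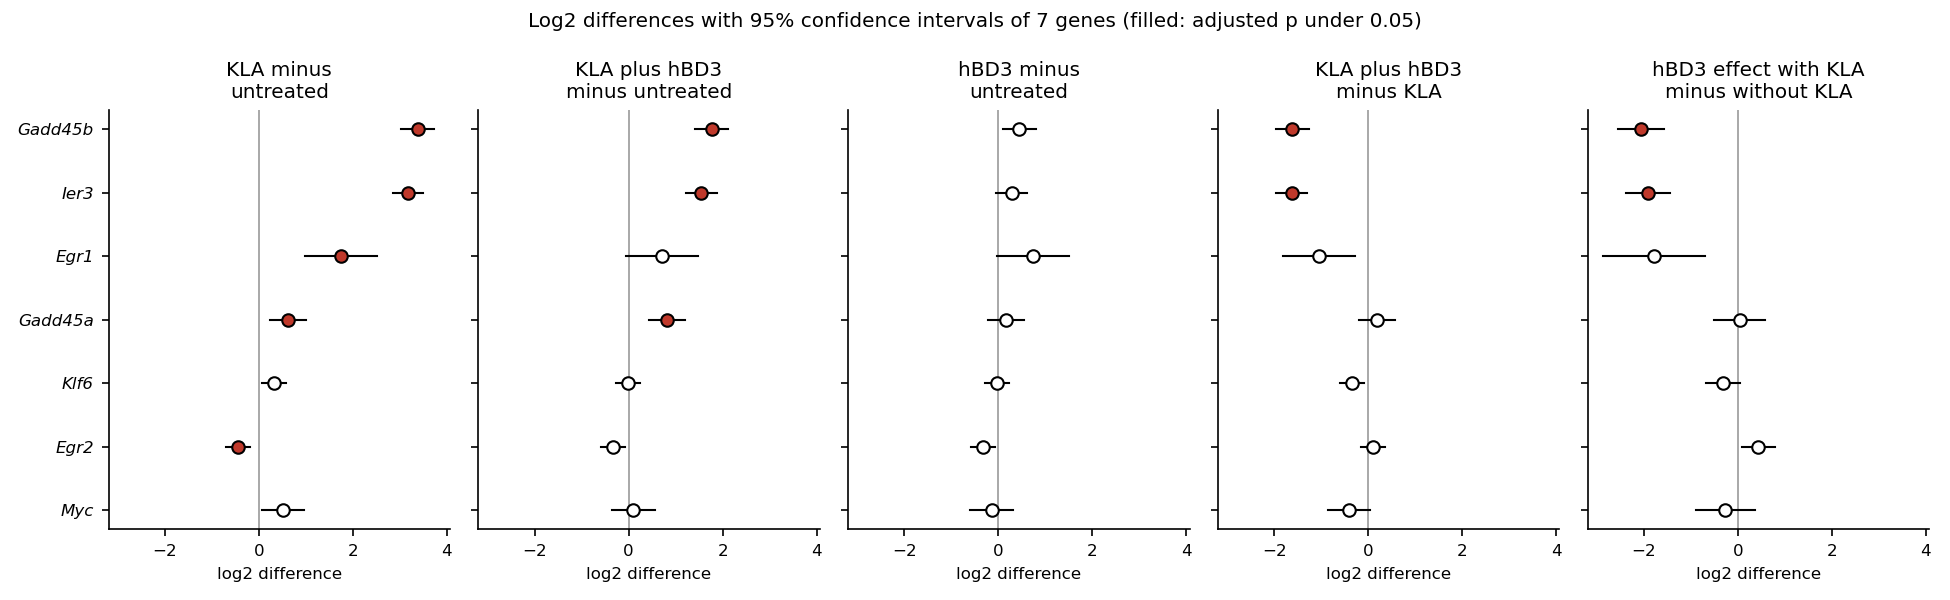
Log2 differences (horizontal axis) with 95% confidence intervals for the 7 genes detected in at least 1 array (rows), in the 5 comparisons (panels). Filled points passed limma's adjusted p under 0.05. Gadd45b and Ier3 lie right of 0 with KLA, nearer to 0 with KLA plus hBD3, and left of 0 in the last 2 panels.

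Egr1 and Egr2 encode zinc-finger transcription factors, of which Egr1 is a classic serum and mitogen response gene and Egr2 has roles in macrophage differentiation and in limiting T cell activation. The log2 signal of Egr1 was 8.32, 7.94 and 8.0 with KLA, 7.16, 7.18 and 6.81 with KLA plus hBD3, 6.52, 6.52 and 8.19 with hBD3, and 6.16, 6.29 and 6.55 in untreated cells. The KLA arrays stood above all arrays with KLA plus hBD3 and all untreated arrays. The third hBD3 array lay within the KLA range, and the other 2 hBD3 arrays lay within the range of untreated cells. Egr1 rose with KLA by 1.76 ± 0.35 (SE, n = 3 per group, adjusted p = 0.00412). With KLA plus hBD3 it was 0.72 ± 0.35 above untreated cells (adjusted p = 0.363) and -1.04 ± 0.35 from KLA alone (adjusted p = 0.125), with no overlap of arrays in either comparison. Its interaction was -1.78 ± 0.50 (adjusted p = 0.0868).

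These results for Egr1 turned on the third hBD3 array, since the fit shares 1 estimate of the spread over all groups. Without it the difference of KLA plus hBD3 from KLA was the same -1.04, with an SE of 0.14 in place of 0.35, and passed the test (adjusted p = 0.000629). So did the difference of KLA plus hBD3 from untreated cells (0.72, adjusted p = 0.0119) and the interaction (-1.23, adjusted p = 0.00846). The rise with KLA was called in all 12 fits that left out an array, at 1.64 to 1.87. With hBD3 alone the difference from untreated cells was 0.74 with the array (adjusted p = 0.698) and 0.19 without it (adjusted p = 0.936).

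The same array had high signal of part of the genes listed as markers of stromal cells, the fibroblast-like cells of marrow. The mean log2 signal over 14 stromal cell markers was 7.92 there, against 6.35 and 6.05 in replicates 1 and 2 of hBD3, and between 5.99 and 6.25 elsewhere. Their summed normalized signal was 12709 in that array, against 905 to 1249 in the other 11. The collagen gene Col1a1 had a log2 signal of 11.92 there, against 6.89 and 6.31 in hBD3 replicates 1 and 2, and the matrix glycoprotein gene Sparc 12.11, against 7.37 and 7.02. Other listed markers differed far less. The collagen genes Col1a2 (6.66, against 5.87 and 5.92) and Col3a1 (6.67, against 5.74 and 5.61) were each detected in 1 hBD3 array. Dcn was at 7.03, against 6.55 and 6.23. Of the 14 markers 10 were highest in that array among all arrays and 5 exceeded the other hBD3 arrays by over 1 log2 unit, while 4, among them the defining marker Pdgfra, were detected in 0 arrays. The part of these transcripts in the Egr1 level was not tested.

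**Figure D3:**
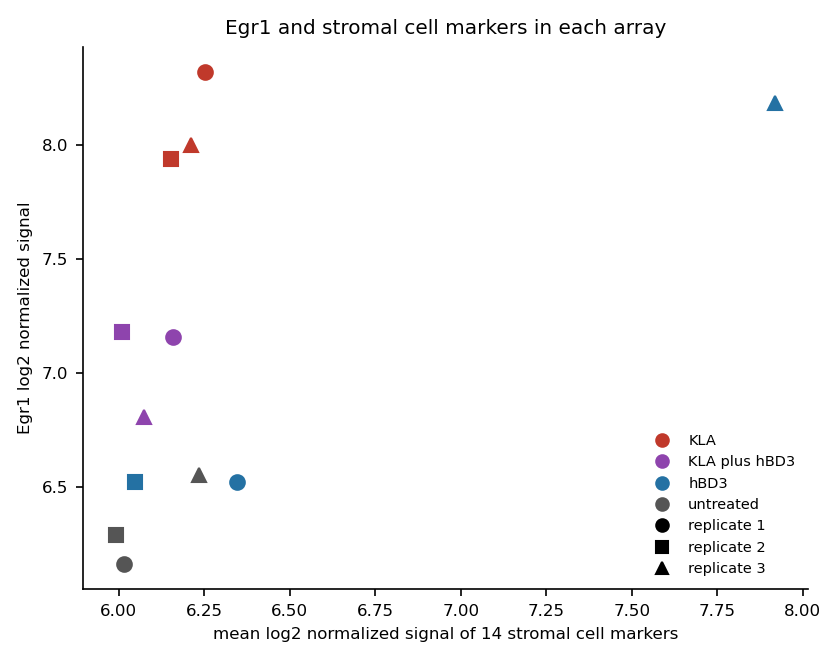
Log2 signal of Egr1 (vertical axis) against the mean log2 signal of 14 stromal cell markers (horizontal axis) in each of the 12 arrays, coloured by group with a symbol per replicate. The third hBD3 array lies alone at 7.92 on the horizontal axis with Egr1 at 8.19, and the KLA arrays reach as high on the vertical axis at stromal means of 6.15 to 6.25.

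The log2 signal of Egr2 was 8.83, 8.69 and 8.85 with KLA, 8.71, 8.85 and 9.14 with KLA plus hBD3, 8.72, 9.01 and 8.97 with hBD3, and 9.15, 9.19 and 9.34 in untreated cells. All 9 treated arrays were below the 3 untreated arrays, and the treated groups overlapped each other. Egr2 fell with KLA by 0.44 ± 0.12 (SE, n = 3 per group, adjusted p = 0.0223). Both hBD3 groups were placed likewise, at -0.33 with KLA plus hBD3 (adjusted p = 0.164) and -0.33 with hBD3 alone (adjusted p = 0.549). The call with KLA was lost without KLA replicate 2 (adjusted p = 0.0886) and without untreated replicate 3 (adjusted p = 0.09). Unlike Egr1, Egr2 thus had its highest level in untreated cells.

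RefSeq listed 5 overlapping or neighbouring windows for Egr2, of which 4 held a CArG box, the element that serum response factor binds. Of these 4, 3 overlap and hold the same box, CCATATATGG. The window at chr10:67537619-67537918 on the + strand (GRCm38.p6, RefSeq) is shown for this box, at bases -72 to -63, and for 2 copies of the CRE core (TGACG), read forward at bases -111 to -107 and on the reverse strand at -55 to -51. Capitals mark the 3 matches.
Egr2: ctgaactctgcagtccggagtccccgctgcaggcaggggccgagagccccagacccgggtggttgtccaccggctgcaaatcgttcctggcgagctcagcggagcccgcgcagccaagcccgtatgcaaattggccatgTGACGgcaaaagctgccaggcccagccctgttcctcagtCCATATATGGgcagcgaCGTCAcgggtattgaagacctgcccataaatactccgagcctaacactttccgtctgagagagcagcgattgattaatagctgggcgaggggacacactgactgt
A CArG box was present in 1.63% of all windows and a CRE core in 20.8%. No such window was matched for Egr1.

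Gadd45a, a growth-arrest gene induced by p53 and by DNA damage, encodes a protein that binds PCNA and p21. Its log2 signal was 8.80, 9.41 and 9.17 with KLA, 8.92, 9.61 and 9.43 with KLA plus hBD3, 8.56, 8.76 and 8.64 with hBD3, and 8.61, 8.49 and 8.40 in untreated cells. Both groups given KLA stood above all untreated arrays and overlapped each other, and hBD3 and untreated arrays overlapped. Gadd45a rose with KLA by 0.63 ± 0.17 (SE, n = 3 per group, adjusted p = 0.0302) and with KLA plus hBD3 by 0.82 ± 0.17 (adjusted p = 0.0208). Against KLA alone, KLA plus hBD3 differed by 0.19 (95% confidence interval -0.19 to 0.58, adjusted p = 0.752), an interval that leaves room for a difference either way. Where Gadd45b and Ier3 fell with the peptide, no fall was called for Gadd45a, and its interaction was 0.041 (95% confidence interval -0.50 to 0.58). The differences between these genes were not tested.

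The calls of Gadd45a were lost in several fits that left out an array. Its rise with KLA did not pass when KLA replicate 2 (adjusted p = 0.126) or 3 (0.0677) was left out, nor when untreated replicate 1 (0.0504), 2 (0.0795) or 3 (0.101) was. The rise with both agents did not pass when replicate 2 (adjusted p = 0.102) or 3 (0.0665) of that group was left out, nor when untreated replicate 2 (0.0596) or 3 (0.0801) was. With KLA replicate 1, the KLA array whose title lacks HBD3, as the whole KLA group, the difference with KLA was 0.30 (adjusted p = 0.583), and without the replicate 3 arrays of KLA, hBD3 and untreated cells it was 0.56 (adjusted p = 0.13). Median centring gave 0.0050 with KLA (adjusted p = 0.992) and 0.15 with KLA plus hBD3 (adjusted p = 0.715).

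The Gadd45a window is shown beside that of its family member Gadd45b, at chr6:67037358-67037657 on the - strand (GRCm38.p6, RefSeq). It held 0 matches to the 8 motifs and is therefore all in lower case.
Gadd45a: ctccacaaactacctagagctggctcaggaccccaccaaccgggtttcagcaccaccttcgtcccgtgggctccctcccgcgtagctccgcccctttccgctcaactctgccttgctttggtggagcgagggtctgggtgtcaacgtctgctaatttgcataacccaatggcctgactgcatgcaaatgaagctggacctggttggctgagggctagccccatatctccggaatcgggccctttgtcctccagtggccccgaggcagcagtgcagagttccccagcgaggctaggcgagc
The window has a GC content of 61%, close to the 62% of that of Gadd45b, where the median over all windows was 52.7%.

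Klf6 encodes a zinc-finger transcription factor that is abundant in myeloid cells. Its log2 signal was 12.24, 12.24 and 12.36 with KLA, 12.06, 11.80 and 11.95 with KLA plus hBD3, 12.02, 12.11 and 11.66 with hBD3, and 11.81, 11.998 and 12.05 in untreated cells. The KLA arrays lay above all 9 others. The difference of KLA from untreated cells was 0.33 ± 0.12 (SE, n = 3 per group, adjusted p = 0.0939) and that of KLA plus hBD3 from KLA -0.34 ± 0.12 (adjusted p = 0.132), so that neither passed. Both passed without the third hBD3 array (adjusted p = 0.0271 and 0.0388), in which Klf6 was lowest.

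Myc, a transcription factor of growth and proliferation, was near the detection limit. Its log2 signal was 6.90, 6.69 and 5.87 with KLA, 6.02, 6.12 and 6.09 with KLA plus hBD3, 6.00, 5.82 and 5.67 with hBD3, and 5.84, 6.13 and 5.94 in untreated cells. It was detected in 2 KLA arrays, in 1 untreated array and in 0 arrays of the groups given hBD3. KLA replicate 3 lay among the untreated arrays, while the other 2 KLA arrays lay above all other arrays. The difference of KLA from untreated cells was 0.51 ± 0.21 (adjusted p = 0.141). That of KLA plus hBD3, where it was undetected, from KLA was -0.41 ± 0.21 (adjusted p = 0.39). Neither passed with all arrays, and both moved with the KLA array left out. With KLA the difference was 0.31 without KLA replicate 1 (adjusted p = 0.426), 0.41 without replicate 2 (0.36) and 0.82 without replicate 3 (0.000425). For KLA plus hBD3 against KLA it was -0.20 (0.773), -0.31 (0.657) and -0.72 (0.00277) in the same fits.

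Ier2 and Ier5, nuclear proteins of the immediate early response, and Btg2, an antiproliferative p53 target that promotes mRNA deadenylation, were not detected in any array. Their log2 signals spanned 5.57 to 6.14 for Ier2, 5.58 to 5.96 for Ier5 and 5.53 to 5.98 for Btg2, and all groups of each overlapped. No fold is given for them, since their level was not detectable at this signal. Beside the windows shown, that of Klf6 held an E-box, that of Btg2 a CRE (TGACGTCA, present in 1.79% of all windows, with the CRE core inside it on either strand), and that of Ier5 0 matches. The AP-1 site (TGANTCA, 7.81% of windows) and the EGR site (GCGTGGGCG, 0.612%) were found in 0 of the 11 windows of these 7 genes, on either strand.

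The genes Gadd45b, Gadd45a, Klf6 and Myc each had a further probe, dimmer than the first. That of Gadd45b read 7.67, 7.29 and 7.99 with KLA, 6.31, 6.25 and 6.10 with KLA plus hBD3, 6.05, 6.07 and 6.09 with hBD3, and 5.84, 6.13 and 5.99 in untreated cells. It rose with KLA by 1.67 ± 0.14 (adjusted p = 6.86e-06) and fell by 1.43 ± 0.14 with KLA plus hBD3 against KLA (adjusted p = 7.82e-05), with an interaction of -1.52 (adjusted p = 0.00175). Against untreated cells it gave 0.24 with KLA plus hBD3 (adjusted p = 0.498), where the brighter probe rose. Of the arrays with KLA plus hBD3 2 detected it, as did 1 of each of the hBD3 and untreated groups, so little of that difference could be measured.

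The probes of Klf6 disagreed. The dimmer one read 7.44, 7.21 and 7.45 with KLA, 6.93, 6.77 and 7.09 with KLA plus hBD3, 7.09, 7.14 and 7.14 with hBD3, and 7.57, 7.49 and 7.52 in untreated cells. Untreated arrays were highest by this probe and KLA arrays by the other. By the dimmer probe Klf6 fell with KLA plus hBD3 by 0.60 ± 0.090 against untreated cells (adjusted p = 0.00314) and by 0.44 ± 0.090 against KLA (adjusted p = 0.01), and the difference with KLA was -0.16 (adjusted p = 0.321). A lower level with KLA plus hBD3 than with KLA was thus measured by both probes, and passed by the dimmer one. By the dimmer probe the level was also lower with hBD3 alone than in untreated cells, by 0.40 (adjusted p = 0.235) with no overlap of arrays. Its interaction was -0.035 (adjusted p = 0.961). By the brighter probe the difference with hBD3 alone was -0.024 (adjusted p = 0.983). The dimmer probe of Gadd45a, detected in all arrays, gave 0.35 with KLA (adjusted p = 0.185) and 0.33 with KLA plus hBD3 (adjusted p = 0.334), and that of Myc was detected in 0 arrays.

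**Figure D4:**
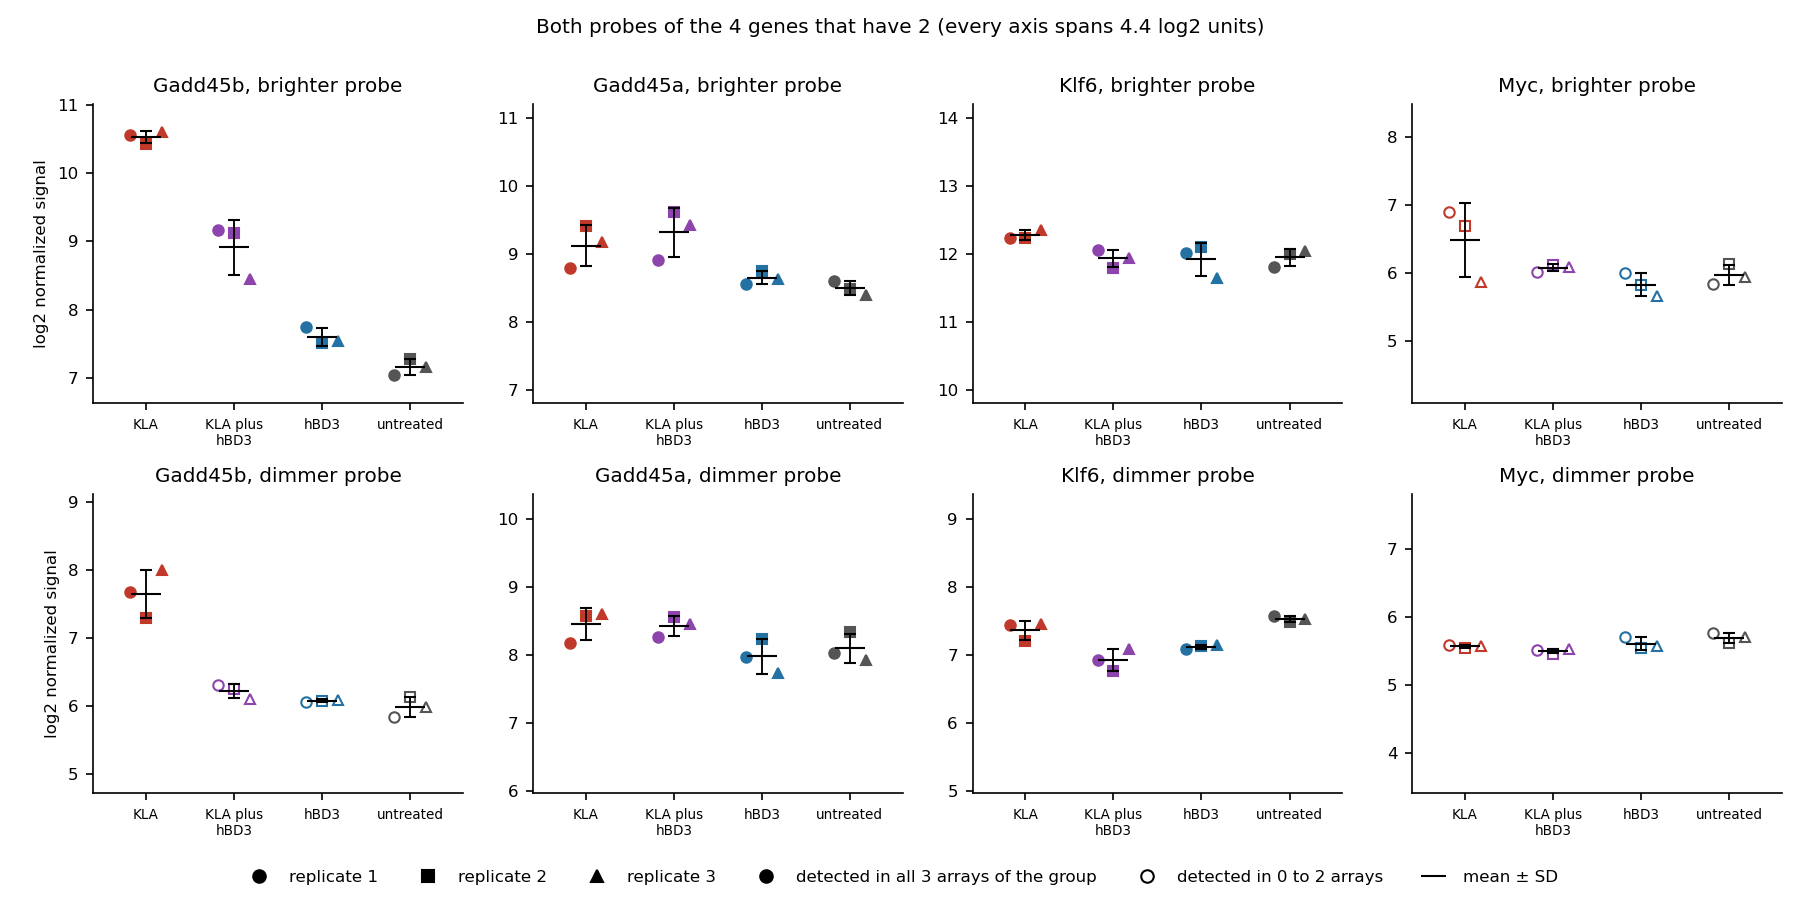
Log2 normalized signal (vertical axis) in each array by group (horizontal axis) for the brighter probe (top row) and the dimmer probe (bottom row) of Gadd45b, Gadd45a, Klf6 and Myc. Symbols mark replicates, filled where all 3 arrays of the group detected the probe, with mean ± SD. The Gadd45b probes are both highest with KLA, while for Klf6 the KLA arrays lead by the brighter probe and the untreated arrays by the dimmer one.

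The wider immediate early response with KLA was mixed among transcription factors and mostly upward among other proteins. Beside the list counts below, 6.84% of all probes were called higher and 8% lower with KLA. In the fit of 14495 detected probes 6650 were called, 44.9% of them higher. For KLA plus hBD3 against KLA the shares of all probes were 3.5% and 3.48%. There 3470 detected probes were called, 52.3% of them higher. The lists were not tested against these shares. Of 25 other immediate early transcription factors measured, 15 of them detected, 7 rose and 5 fell, with a median log2 difference of 0.079. The largest rises were Csrnp1 (1.92 ± 0.14), the helix-loop-helix inhibitor Id2 (1.74 ± 0.22) and the AP-1 subunit Fosl2 (1.40 ± 0.10). Fos, the classic partner of Jun in AP-1, fell by 3.00 ± 0.17 (adjusted p = 2.80e-07), and the Krueppel-like factors Klf2 and Klf9 fell by 1.96 ± 0.19 and 1.37 ± 0.12. Median centring turned this balance, with 4 higher and 7 lower at a median of 0.15. Set against KLA alone, KLA plus hBD3 gave 2 higher and 6 lower, and 2 and 3 with median centring. Fos rose by 2.44 ± 0.17 and Klf2 by 1.23 ± 0.19 in that comparison, whereas Csrnp1 fell by 1.28 ± 0.14, Maff, a small Maf protein, by 1.07 ± 0.17 and Id3 by 1.01 ± 0.25.

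Of 20 other immediate early proteins, 18 of them detected, 12 rose and 3 fell with KLA, with a median of 1.07. The MAP kinase phosphatase Dusp2 rose by 5.12 ± 0.28, Phlda1 by 3.12 ± 0.18 and Ppp1r15a (GADD34), which restores translation after stress, by 2.93 ± 0.13. Dusp6, a phosphatase of ERK, fell by 0.71 ± 0.19 and the kinase Sgk1 by 0.71 ± 0.092, and Ier5l was undetected with KLA and fell at least 1.35-fold (adjusted p = 0.000294). Against KLA alone, 3 were higher and 9 lower with KLA plus hBD3, with a median of -0.93 (0 and 9 with median centring). Dusp2, Phlda1 and Ppp1r15a fell by 2.25 ± 0.28, 1.96 ± 0.18 and 1.76 ± 0.13.

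Of 23 growth-arrest and p53 target genes other than the members, 19 of them detected, 2 were called higher and 7 lower with KLA. Their median was -0.16. Cdkn1a, the cell cycle inhibitor p21, rose by 3.03 ± 0.26 (adjusted p = 6.41e-06), and Mdm2, the ubiquitin ligase of p53, by 0.53 ± 0.14. Sesn1, a stress-induced inhibitor of mTORC1, fell by 3.64 ± 0.15, Trp53inp1 by 1.55 ± 0.12 and Ei24 by 1.17 ± 0.15. Against KLA alone, 7 were higher with KLA plus hBD3 and 0 lower, among them Sesn1 (2.97 ± 0.15), Ei24 (0.96 ± 0.15) and Trp53inp1 (0.87 ± 0.12). Median centring gave 1 higher and 12 lower with KLA, with a median of -0.75, and 1 higher and 0 lower for KLA plus hBD3 against KLA.

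Among regulators upstream of these genes, 12 serum response factor and ETS regulators were measured and 10 detected. With KLA 2 rose, Ets2 (2.87 ± 0.17) and Creb1 (0.61 ± 0.12), and 0 fell. Their median of 0.14 turned to -0.24 with median centring (1 higher, 3 lower). Of 15 MAP kinase relay genes, 11 of them detected, 4 rose and 3 fell. Their median of 0.17 turned to -0.17 with median centring (1 higher, 5 lower). Map3k8, the kinase that couples Toll-like receptors to ERK, rose by 1.69 ± 0.096, and Map3k1 and Mapk14 (p38 alpha) fell by 2.08 ± 0.15 and 1.55 ± 0.20. Map3k8 fell by 1.25 ± 0.096 with KLA plus hBD3 against KLA, and Mapk14 rose by 1.36 ± 0.20.

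Around Myc, of 11 partners and antagonists, 8 of them detected, 1 rose with KLA and 2 fell (1 and 5 with median centring). Mycl, its paralog, rose by 3.72 ± 0.29 (adjusted p = 3.28e-06), the antagonist Mxd4 fell by 1.81 ± 0.17, and Mnt was undetected with KLA and fell at least 1.08-fold (adjusted p = 0.0355). Of 19 MYC target genes, 15 of them detected, 5 rose and 1 fell. Their median of 0.26 turned to -0.16 with median centring (2 higher, 2 lower). Ccnd2 (cyclin D2) rose by 3.23 ± 0.46 and the nucleolar proteins Nop58 and Rrp9 by 1.28 ± 0.086 and 1.12 ± 0.17, while Cdk4 fell by 0.83 ± 0.13. Against KLA alone, 0 targets were higher and 6 lower with KLA plus hBD3 (0 and 2 with median centring), and Mycl fell by 2.09 ± 0.29. With hBD3 alone 0 genes of these 7 lists were called.

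Profiles across the 12 arrays were compared with those of 8265 other detected genes by the root mean square difference of log2 values, each gene centred on its own mean. Those nearest to Gadd45b were St3gal3, a sialyltransferase (0.19), and Nfkbiz, an atypical IkB protein (0.20), and those nearest to Ier3 were Stk40 (0.19) and again St3gal3 (0.22). Both members varied by over 1 log2 unit across arrays (SD 1.33 for Gadd45b and 1.26 for Ier3). Those nearest to Egr1 were the basement membrane collagen Col4a2 (0.29) and Tnfrsf11b (osteoprotegerin, 0.31), and without the third hBD3 array Tmem39a (0.12) and Akna (0.13). Egr2 was nearest to Tor1b (0.10) and Prpf8 (0.11), Klf6 to Rheb (0.092) and Megf9 (0.096), and Gadd45a to Ruvbl1 (0.19) and Dok2 (0.20), against SDs of their own of 0.21, 0.19 and 0.39. Leaving out that array, 1 of the nearest 2 genes changed for Ier3 (Fcgr2b, 0.16), Egr2 (Tulp3, 0.0995) and Gadd45a (N4bp1, 0.20), both for Klf6 (Rmdn2, 0.069, and Ankrd12, 0.074) and neither for Gadd45b.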

How the data were processed

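Total RNA of 12 samples in 4 groups of 3 was measured on Illumina MouseWG-6 arrays. The deposited normalized intensity values are linear and were made by the authors with quantile normalization, and a deposited table of intensity before normalization gives a detection p-value per probe. That table's headings name an agent but no sample, so detection was counted per group. They read lps, hbd3lps, hbd3 and wt, where wt was read as untreated. Each heading also carries a running number, by which the labels repeat in the order wt, hbd3, lps and hbd3lps. These running numbers were not used to pair arrays. The heading lps was read as KLA, the only agent of that kind in the series. Quantile normalized here, each of its columns equalled 1 deposited sample of the same group for 100% of probes within 0.1%. Versions of the authors' tools, limma among them, are not given in the sources used here.

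A group-means model was fitted to log2 of the normalized intensity of all 45281 probes with limma 3.58.1 in R 4.3.3 (8 residual and 3.66 prior degrees of freedom), two-sided, with Benjamini-Hochberg adjustment over all probes of a comparison and calls at an adjusted p under 0.05. Comparisons that share arrays are not independent. The interaction subtracts the hBD3 effect without KLA from that with KLA. The script was tested on simulated data. Of 45281 probes 34885 named 1 gene, 18 several and 10378 none.

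The members and 13 gene lists were chosen with earlier results of these data known. Named were all members, up to 3 called genes of a pathway list with the largest rise and fall with KLA and with KLA plus hBD3 against KLA, and the 2 genes nearest in profile. Of 199 list genes 13 had no probe. Marker genes were named where a result turned on them. Changes of undetected groups are bounds, computed with each array's lowest detected signal. Deviations of same-numbered KLA, hBD3 and untreated arrays from their group means correlated at 0.273 to 0.709, so the numbers were read as pairs there. The main fit, from which the values above come, left this pairing out. It entered only in the replicate block. Pairs with KLA plus hBD3 ranged from -0.0659 to 0.281. Alternatives were median centring, neqc, detected probes, all probes of a gene, an intensity trend, a replicate block, KLA replicate 1 alone, the replicate 3 arrays left out and each array left out. The other probe of a gene, and profiles without hBD3 replicate 3, were added after the data were seen. Promoter windows were taken from RefSeq for the 7 members matched by symbol. The number of arrays limits the precision.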

Additional observations from a re-analysis of the deposited data

Results flagged for a closer look

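The effect of hBD3 differed by the presence of KLA for 2 of the 10 genes, by limma's test of the interaction. Among all probes 1.66% were called higher and 1.74% lower by it, and 1783 in the fit of 14495 detected probes. For Ier3 the effect of hBD3 with KLA minus that without KLA was -1.91 on the log2 scale (adjusted p = 0.000562), from -1.63 with KLA and 0.29 without. For Gadd45b it was -2.06 (adjusted p = 0.000562), from -1.62 with KLA and 0.45 without.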

How the results depend on the processing

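Over 715 recomputed differences of single genes, 673 kept their side of the threshold, 21 lost a call, 21 gained one and 0 turned direction while called. In part of these fits the log2 difference was fixed, and only its SE and adjusted p could move. Those are the replicate block, the intensity trend, detected probes only, and fits without an array of a group outside the comparison. The totals thus overstate how far direction was put to the test. Leaving out each array in turn, the genes called numbered 3 to 6 with KLA (5 with all arrays; 3 without KLA replicate 2 and 3 without untreated replicate 3), 2 to 4 with KLA plus hBD3 against untreated cells (3), 0 to 0 with hBD3, 2 to 4 for KLA plus hBD3 against KLA (2; 4 without hBD3 replicate 3) and 2 to 3 for the interaction (2). Without the replicate 3 arrays of KLA, hBD3 and untreated cells, 4 were called for KLA plus hBD3 against KLA. With the replicate block 5, 3, 0, 2 and 2 genes were called in the 5 comparisons, as without it, and the block changed no call of a member.

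Median centring moved the median difference of detected probes to -0.522 with KLA, -0.487 with KLA plus hBD3 and -0.236 with hBD3 against untreated cells, and to 0.0518 for KLA plus hBD3 against KLA and 0.265 for the interaction. Of called probes 15% (of 8509) were then higher with KLA, against 46.1% (of 6717), 5.23% (of 6180) with KLA plus hBD3 against untreated cells, against 44.7% (of 1986), and 60.5% (of 425) in the interaction, against 48.8% (of 1542). For KLA plus hBD3 against KLA 1216 probes were called, against 3165. Beside those shifts Gadd45b was at 2.91 and Ier3 at 2.74 with KLA, 1.16 and 0.88 with KLA plus hBD3 against untreated cells, and -1.76 and -1.85 against KLA, all called. Egr1 kept its call with KLA (1.24, adjusted p = 0.0251). Egr2 was at -1.07 with KLA (adjusted p = 0.00654) and -0.97 with KLA plus hBD3 (adjusted p = 0.0179), called in both. The call of Egr2 with KLA was lost with an intensity trend (adjusted p = 0.095), with KLA replicate 1 alone (0.238) and without the replicate 3 arrays (0.0788). The interaction of Egr1 passed over detected probes only (adjusted p = 0.039). Of the list genes named, median centring ended the calls of Creb1 (adjusted p = 0.68), Mdm2 (0.781) and Rrp9 (0.0689) with KLA, and of Id3 (0.208), Mapk14 (0.0737), Ei24 (0.0669) and Trp53inp1 (0.0552) for KLA plus hBD3 against KLA. BeadChip was not run as a block, since the headings give none. The study's methods state that the 6 h samples were on more than 1 BeadChip, and which arrays shared one is not given. In the order of the samples, the KLA and KLA plus hBD3 arrays come before the hBD3 and untreated arrays. If the chips followed that order, an effect of KLA and one of chip cannot be told apart.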
